A study of Mus musculus with 6 samples.

Results

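The collagen chain genes were all rows of the deposited gene table whose symbol reads Col, a number, the letter a and a number, which gave 43 of 25655 genes. By collagen class they fell into 11 fibrillar, 6 basement membrane, 8 FACIT (fibril-associated), 6 beaded, 4 transmembrane, 2 multiplexin, 3 short-chain network and 1 anchoring fibril genes, and 2 genes that were put in no class. The cells were Comma-Dβ, a mammary epithelial line of mouse origin kept at passage 29, so every value comes from 1 line. The siID4 arm (3 libraries) received a siGENOME SMARTpool of siRNAs against mouse Id4, which encodes an inhibitor of basic helix-loop-helix transcription factors. The NT arm (3 libraries) received the ON-TARGETplus non-targeting pool, so knockdown and siRNA product line cannot be told apart. Both arms shared the dose of 20 nM, the reagent Dharmafect-4 and the harvest at 48 hr, and no untransfected cells were analysed here. The study compared the arms to find which mRNAs change when Id4 is lowered.

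Collagens are trimeric matrix proteins whose chains wind around each other in a helix, and each gene encodes 1 kind of chain. Fibrillar collagens form the tensile fibers of connective tissue, FACIT and beaded collagens sit on or between the fibers, and type IV collagen forms the sheet-like network of the basement membrane on which mammary epithelium rests. In the mammary gland the myoepithelial (basal) layer touches this sheet directly, while most fibrillar collagen is made by fibroblasts.

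Library totals were 19.2 M to 23.1 M counts, and levels are given as CPM, counts scaled to equal library depth, after TMM scaling. The NT libraries held 135, 114 and 118 CPM of Id4 and the siID4 libraries held 59.4, 62.2 and 48.2 CPM, so the knockdown was visible in each (adjusted p = 8.65e-04). Changes were tested with edgeR's quasi-likelihood test over 13941 genes, and "rose" or "fell" is used at an adjusted p under 0.05. A value in parentheses before an adjusted p is the log2 fold change of siID4 against NT, with its SE after ±. The design names 3 biological replicates but not how they were separated, and p-values measure the spread between these libraries. Libraries with the same replicate number deviated together, and a fit with the number as a block is given beside each collagen gene whose call it changes, with counts for the other lists. That fit has 3 pairs for each gene and takes much of the gene's spread from all genes. Its very small adjusted p-values rest on that shared spread. Keratins of the basal layer were abundant in both arms, with means of 822 (NT) and 727 (siID4) CPM for Krt5, which fell with the block (adjusted p = 4.65e-05), and 936 and 868 CPM for Krt14. RNA from bulk cells cannot tell more cells that make a chain from more of its RNA per cell.

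Of the 43 collagen genes, 32 passed the count filter and 12 of them rose in siID4 cells, while 4.62% of all genes tested did. Leaving out NT replicate 2 lowered the count to 6, and leaving out siID4 replicate 2 lowered it to 7. In the fit with the replicate block 23 rose, where 17.9% of all genes tested did. The 12 genes that rose without the block were the fibrillar genes Col1a1, Col1a2, Col2a1, Col5a1, Col5a2 and Col11a1, the FACIT genes Col9a3 and Col12a1, the basement membrane gene Col4a5, the beaded gene Col6a2, the short-chain gene Col8a1 and the anchoring fibril gene Col7a1. No collagen gene fell by edgeR without the block at an adjusted p under 0.05, where 4.93% of all genes did. DESeq2 and limma-voom also called 0 lower, and 1 (Col4a1) was lower at an unadjusted p under 0.05. With the block 2 collagen genes (Col4a1 and Col5a3) fell, where 18.3% of all genes tested did. The log2 fold change was above 0 for 28 of the 32 (87.5%), against 50.2% of all genes tested. The median was 0.54 over the 32 collagen genes and 0.00 over all genes tested.

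Of the 32 genes, 29 met the filter's minimum in all 6 libraries, with a median log2 fold change of 0.50 and 11 that rose. The other 3 (Col2a1, Col4a3 and Col9a2) met it in all libraries of the siID4 arm only, so their direction was fixed in part by the filter. All 3 are counted among the 28 genes above 0 and the 23 that rose with the block. The 3 siID4 libraries lay above all 3 NT libraries for 18 of the 32 collagen genes, Col2a1 and Col4a3 included, as for 15.5% of all genes tested. They lay below them for 1 collagen gene, Col4a1, as for 15.4% of all genes tested. The 11 untested collagen genes had 0 to 15 counts in a library. They were Col4a6, Col6a4, Col6a5, Col6a6, Col10a1, Col13a1, Col15a1, Col22a1, Col23a1, Col26a1 and Col28a1, and their highest mean in an arm was 0.545 CPM.

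**Figure D1:**
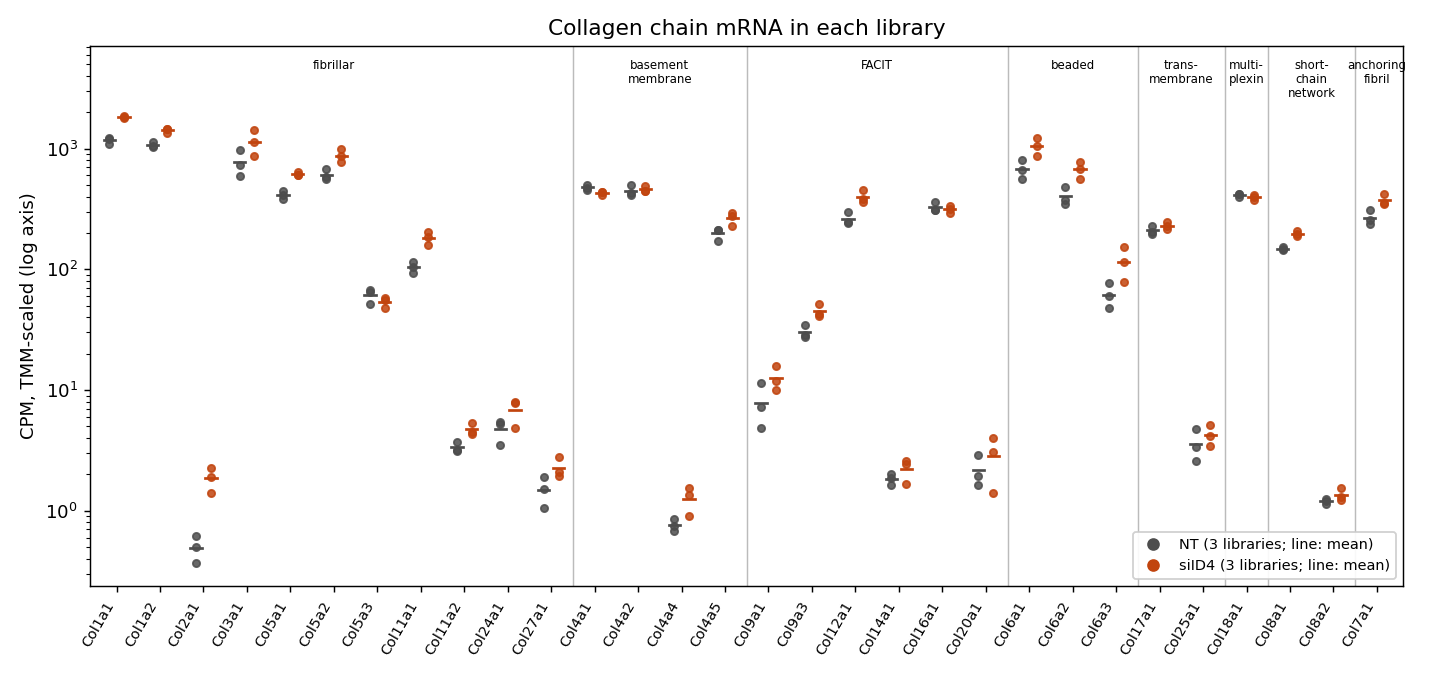
Level of each collagen gene with a mean of at least 1 CPM in either arm, in CPM on a log axis, by collagen class, with NT libraries in grey, siID4 libraries in orange and a line at each arm's mean. The orange points of Col1a1, Col5a1 and Col11a1 lie above the grey ones, while those of Col4a2, Col16a1 and Col18a1 overlap them.

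Compared per kilobase of transcript, type I and type III collagen led in both arms. The levels per kilobase were 210 ± 11.5 CPM for Col1a2, 198 ± 11.8 for Col1a1 and 190 ± 47.2 for Col3a1 in NT cells (SD, n = 3). In siID4 cells the same levels were 278 ± 11.9, 308 ± 5.31 and 282 ± 68.9 CPM per kilobase. The order of these 3 chains did not differ beyond their spread in the NT arm. Next came Col6a1 with 165 (NT) and 255 (siID4), Col6a2 with 99.3 and 166, and Col5a2 with 93.6 and 135 CPM per kilobase. Col16a1 (86.6 and 83.0), Col18a1 (86.1 and 82.7), Col4a2 (73.4 and 75.9) and Col4a1 (72.3 and 65.3 CPM per kilobase) lay close together in the NT arm.

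The classes took different shares of the sum of all 43 chains in the arms. Fibrillar genes held 49.8%, 49.4% and 48.7% of the summed per-kilobase collagen level in the NT libraries and 52.2%, 52.9% and 52.2% in the siID4 libraries. Beaded genes held 15.6% to 19.3% and 18.7% to 22.4%, which overlap between the arms. Basement membrane genes held 10.4%, 11.6% and 12.7% in NT libraries and 8.01%, 8.74% and 9.60% in siID4 libraries, without overlap. FACIT genes (8.22% to 8.53% and 6.93% to 7.14%) and multiplexin genes (5.12% to 6.02% and 3.72% to 4.30%) also held lower shares in siID4 libraries without overlap. A class's share also falls when another class rises, so a lower share is not by itself a fall of its genes.

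Of the 11 fibrillar genes 6 rose, led in level by the chains of type I collagen, the main collagen of most connective tissue. Col1a1 (chr11:94936224-94953042, plus strand, GRCm38) encodes the chain present as a pair in the usual type I trimer. It measured 1198, 1091 and 1222 CPM in NT cells and 1786, 1817 and 1849 CPM in siID4 cells. All siID4 libraries were above all NT libraries, 1.55-fold in the means, with a log2 fold change of 0.63 ± 0.05 (SE) and an adjusted p of 3.91e-04 by edgeR. Its partner Col1a2 (chr6:4504814-4541544, plus strand) measured 1139, 1057 and 1025 CPM in NT cells and 1456, 1454 and 1350 CPM in siID4 cells. The arms were again apart, with a log2 fold change of 0.40 ± 0.05 and an adjusted p of 0.00310.

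Type V and type XI chains, which join type I and type II fibrils and help set their diameter, rose in part. Col5a1 (chr2:27886425-28039514, plus strand) measured 446, 385 and 415 CPM in NT cells and 641, 600.3 and 600.5 CPM in siID4 cells (log2 fold change 0.56 ± 0.06, adjusted p = 0.00115). Col5a2 (chr1:45374321-45503282, minus strand) measured 679, 584 and 559 CPM against 990.4, 867 and 770 CPM (0.53 ± 0.10, adjusted p = 0.0177). For both genes each siID4 library was above each NT library. The call of Col5a2 was lost without NT replicate 2 (adjusted p = 0.0719) or siID4 replicate 2 (0.0648). Col11a1 (chr3:114030540-114220718, plus strand) measured 116, 105 and 93.5 CPM in NT cells and 202, 184 and 160 CPM in siID4 cells. The arms did not overlap, with a log2 fold change of 0.80 ± 0.10 and an adjusted p of 0.00322.

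Col5a3 encodes another type V chain and was the 1 tested fibrillar gene with a negative log2 fold change. It measured 64.8, 51.6 and 66.9 CPM in NT cells and 55.6, 47.5 and 58.3 CPM in siID4 cells, and the arms overlapped. Its log2 fold change was -0.18 (95% interval -0.43 to 0.07, adjusted p = 0.341). It fell with the replicate block (adjusted p = 9.76e-04), where each siID4 library was below the NT library of its number. Per kilobase, Col5a3 was 0.207, 0.191 and 0.229 of Col5a1 in NT libraries and 0.123, 0.113 and 0.138 of it in siID4 libraries, a ratio that was chosen after its values were seen and is given without a test.

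Col2a1 encodes the chain of type II collagen, the fibrillar collagen of cartilage, and was near the detection limit in NT cells. It had 10, 7 and 14 counts in NT cells and 52, 42 and 32 counts in siID4 cells. All siID4 libraries were higher, with a mean of 0.494 ± 0.125 CPM in NT cells and 1.85 ± 0.423 CPM in siID4 cells (SD, n = 3). The log2 fold change was 1.88 ± 0.29 (adjusted p = 0.00568), the largest among the collagen genes that rose. Col2a1 lies at chr15:97975602-98004695 on the minus strand. The cartilage proteoglycan Acan measured 0.505 (NT) and 0.485 (siID4) CPM, and Sox9, a regulator of Col2a1 in cartilage, measured 165 and 188 CPM (adjusted p = 0.193) and rose with the replicate block (adjusted p = 8.86e-06). Of 6 chondrocyte markers 3 were tested and 1 rose, Cnmd, from 0.537 to 1.91 CPM (adjusted p = 0.0307). Cnmd was at 0.502, 0.888 and 0.220 CPM in the NT libraries, around the filter's minimum of 0.451 CPM, so it too met that minimum in all libraries of the siID4 arm only. The summed level of the 6 was 153 to 187 CPM in NT cells and 178 to 204 CPM in siID4 cells and was nearly all Sox9, and the part of these markers in the change of Col2a1 was not tested.

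Col3a1 (chr1:45311538-45349706, plus strand) encodes the only chain of type III collagen, found with type I collagen in skin and vessel walls. It measured 975, 736 and 597 CPM in NT cells and 1419, 1142 and 861 CPM in siID4 cells. The arms overlapped, because NT replicate 1 was higher than siID4 replicate 3. The log2 fold change of 0.57 ± 0.24 did not pass the test (adjusted p = 0.207). Within each replicate number the siID4 library was higher, by 0.54, 0.63 and 0.53 on the log2 scale, and with the replicate block Col3a1 rose (adjusted p = 4.49e-17).

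The remaining fibrillar genes were at low levels. Col11a2, a type XI chain, measured 3.11, 3.71 and 3.21 CPM in NT cells and 5.31, 4.48 and 4.34 CPM in siID4 cells (log2 fold change 0.50, adjusted p = 0.0695). Col24a1, a minor fibrillar chain, measured 5.42, 5.27 and 3.48 CPM against 7.99, 7.74 and 4.87 CPM (0.55, adjusted p = 0.176). Col27a1, a chain abundant in developing cartilage, measured 1.05, 1.51 and 1.89 CPM against 1.94, 2.08 and 2.81 CPM (0.60, adjusted p = 0.174). The arms did not overlap for Col11a2 and Col27a1 and overlapped for Col24a1. With the replicate block these genes rose, with adjusted p of 0.00635, 4.69e-04 and 0.0150.

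**Figure D2:**
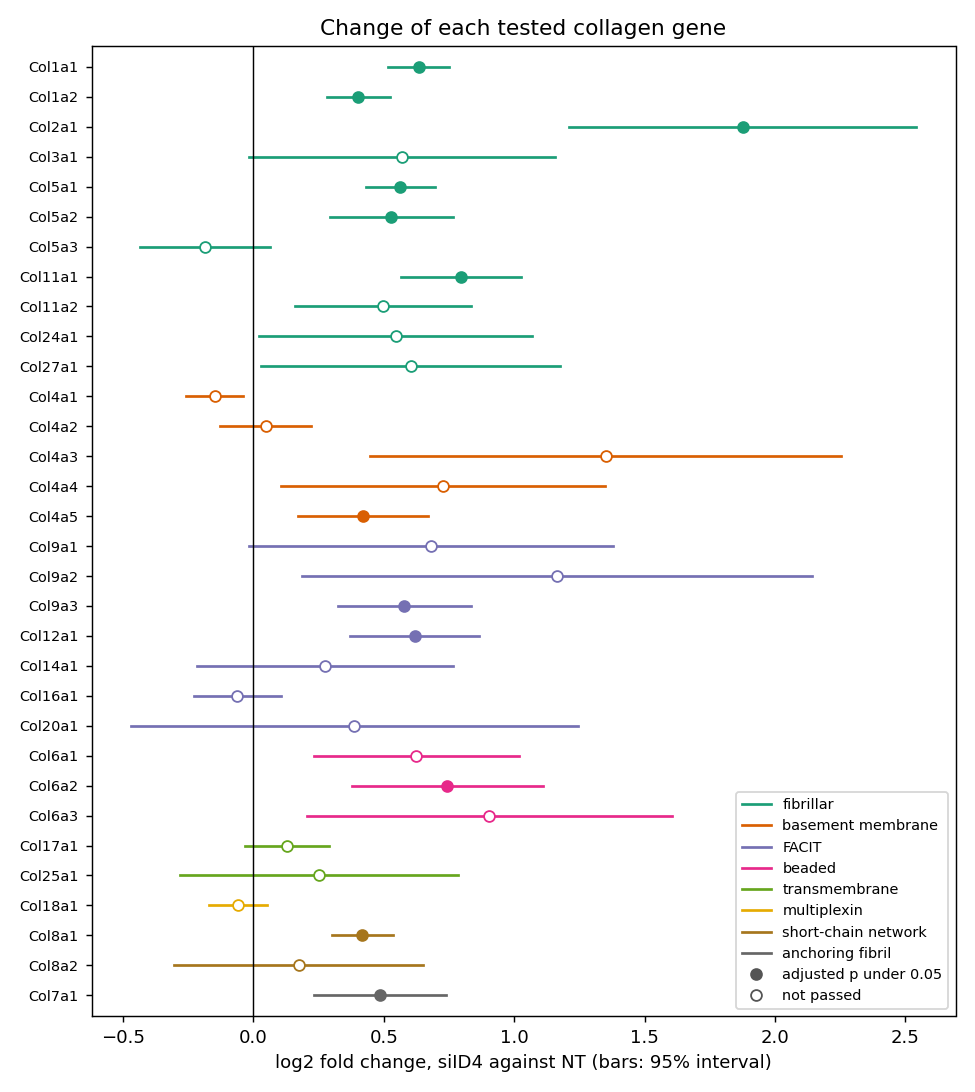
Log2 fold change of each of the 32 tested collagen genes in siID4 against NT cells (x axis) with its 95% interval, colored by class, with filled circles for genes at an adjusted p under 0.05 by edgeR. Col2a1 lies farthest right at 1.88, and Col5a3, Col4a1, Col16a1 and Col18a1 are the 4 genes left of 0.

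Of the 5 tested basement membrane genes 1 rose, Col4a5. Col4a1 and Col4a2, whose products make the type IV trimer found in nearly all basement membranes, start head to head on opposite strands of chromosome 8. Col4a1 measured 475, 457 and 499 CPM in NT cells and 435, 415 and 441 CPM in siID4 cells. Each siID4 library was below each NT library, with a log2 fold change of -0.15 (95% interval -0.26 to -0.04) and an adjusted p of 0.0855. Col4a2 measured 426, 410 and 498 CPM in NT cells and 445, 442 and 493 CPM in siID4 cells, and the arms overlapped (log2 fold change 0.05, 95% interval -0.13 to 0.22, adjusted p = 0.758). Col4a1 fell with the replicate block (adjusted p = 2.80e-05).

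Col4a5 (chrX:141475385-141689234, plus strand) encodes a chain of the more restricted type IV networks. It measured 212.1, 211.9 and 171 CPM in NT cells and 274, 292 and 230 CPM in siID4 cells. All siID4 libraries were higher, with a log2 fold change of 0.42 ± 0.11 and an adjusted p of 0.0477. The call was near the threshold: it was lost in 5 of the 6 fits that left out 1 library, all but the fit without siID4 replicate 3, with adjusted p up to 0.165, and with no filter on low counts (0.110). Col4a6, which encodes a partner of the Col4a5 chain, had 1 count in all 6 libraries together.

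Col4a3 and Col4a4, which join Col4a5 in the kidney and lung networks, were scarce. Col4a4 measured 0.853, 0.679 and 0.748 CPM in NT cells and 1.34, 0.906 and 1.53 CPM in siID4 cells (0.73, adjusted p = 0.135). Col4a3 measured 0.132 to 0.634 CPM over the 6 libraries (log2 fold change 1.35, adjusted p = 0.0663). Both rose with the replicate block (adjusted p = 0.0331 and 0.0143), but Col4a3 met the filter's minimum in all libraries of the siID4 arm only. Per kilobase, Col4a5 was 0.488, 0.507 and 0.375 of Col4a1 in NT libraries and 0.688, 0.768 and 0.571 in siID4 libraries, another ratio that was chosen after its values were seen and is given without a test.

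Of the 7 tested FACIT genes 2 rose. Col12a1 (chr9:79598991-79718831, minus strand) encodes type XII collagen, which lies on type I fibrils. It measured 296, 246 and 240.2 CPM in NT cells and 457, 384 and 358 CPM in siID4 cells. Every siID4 library was higher, with a log2 fold change of 0.62 ± 0.11 and an adjusted p of 0.0116 (0.0509 without NT replicate 2). Col9a3 (chr2:180597790-180622189, plus strand), a chain of the type IX collagen of cartilage fibrils, measured 34.7, 27.7 and 28.3 CPM in NT cells and 51.6, 43.0 and 41.0 CPM in siID4 cells. The arms did not overlap (0.58 ± 0.11, adjusted p = 0.0149), and the call was lost without NT replicate 2 (0.0710) or siID4 replicate 2 (0.0540).

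The other type IX chains did not pass the test. Col9a1 measured 11.4, 7.26 and 4.84 CPM in NT cells and 15.8, 11.8 and 10.0 CPM in siID4 cells (0.68, adjusted p = 0.205), with the arms overlapping. Col9a2 measured 0.220 to 1.08 CPM over the 6 libraries (1.17, adjusted p = 0.128). Both rose with the replicate block (adjusted p = 2.08e-06 and 0.0111), but Col9a2 met the filter's minimum in all libraries of the siID4 arm only.

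Col16a1, a FACIT chain of skin and smooth muscle, measured 361, 310 and 312 CPM in NT cells and 337, 314 and 291 CPM in siID4 cells. The arms overlapped, and the log2 fold change of -0.06 had a 95% interval of -0.23 to 0.11 (adjusted p = 0.665). Col14a1 measured 2.01, 1.88 and 1.63 CPM against 2.42, 2.58 and 1.67 CPM (0.28, adjusted p = 0.478). Col20a1 measured 2.91, 1.62 and 1.94 CPM against 3.97, 3.08 and 1.40 CPM (0.39, adjusted p = 0.573). For both of these scarce genes the arms overlapped.

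The beaded collagen, type VI, forms microfibrils that link cells to the surrounding matrix, and its chains Col6a1, Col6a2 and Col6a3 assemble together. Col6a2 (chr10:76595762-76623630, minus strand) measured 484, 375 and 345 CPM in NT cells and 779.8, 673 and 563 CPM in siID4 cells. The arms did not overlap and Col6a2 rose (0.74 ± 0.16, adjusted p = 0.0292). That call was kept in 2 of the 6 fits that left out 1 library, those without NT replicate 1 and without siID4 replicate 3. It was lost in the other 4, with adjusted p up to 0.0876, and with no filter on low counts (0.142).

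Col6a1 (chr10:76708792-76726168, minus strand) measured 810, 662 and 558 CPM in NT cells and 1227, 1046 and 861 CPM in siID4 cells. Its arms did not overlap either, but the log2 fold change of 0.63 ± 0.17 missed the threshold (adjusted p = 0.0625), and DESeq2 gave an adjusted p of 0.0364. Col6a3 (chr1:90765923-90843971, minus strand) measured 76.8, 60.3 and 48.0 CPM in NT cells and 153, 114 and 78.6 CPM in siID4 cells (0.91 ± 0.28, adjusted p = 0.111). All siID4 libraries of Col6a3 were above all NT libraries. Both rose with the replicate block, with adjusted p of 2.43e-18 for Col6a1 and 3.65e-11 for Col6a3.

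**Figure D3:**
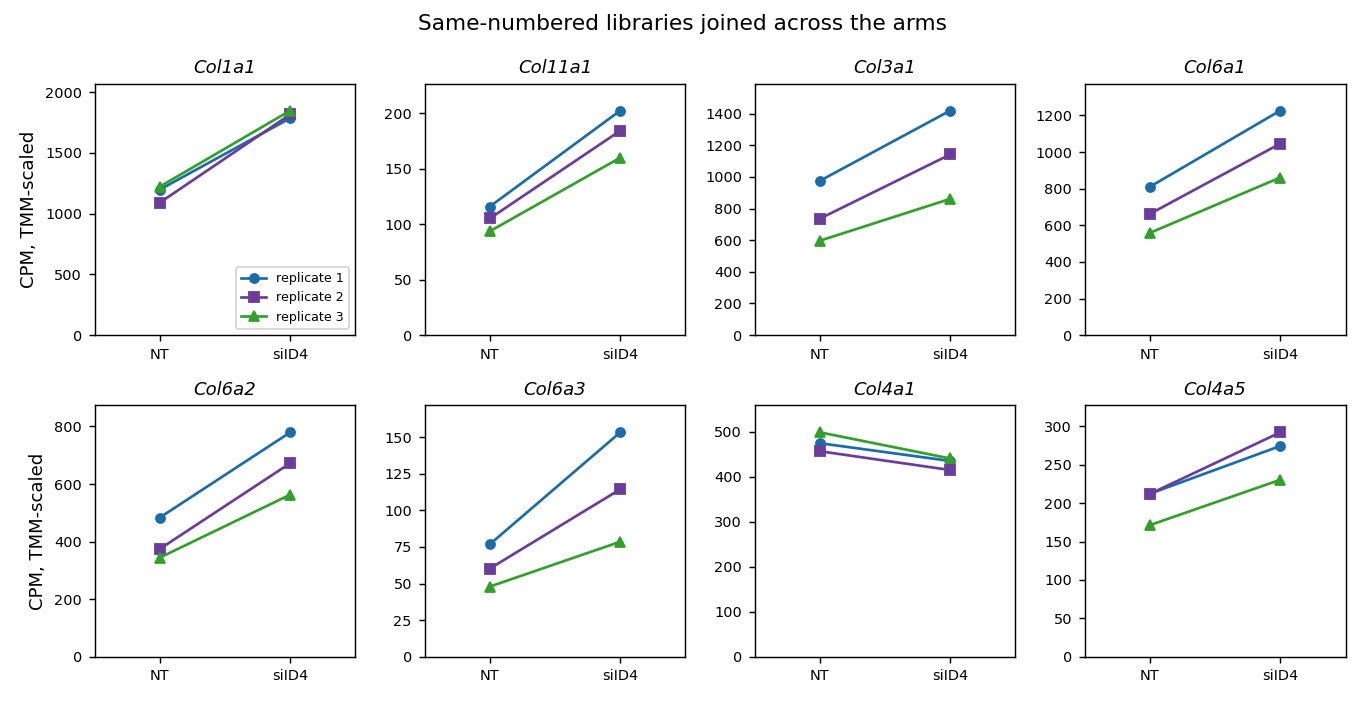
Levels of 8 collagen genes in CPM (y axes from 0) in NT and siID4 libraries, with lines joining libraries of the same replicate number. In the panels of Col3a1, Col6a1, Col6a2 and Col6a3 replicate 1 is highest and replicate 3 lowest in both arms, every line goes up except in the Col4a1 panel, and the Col3a1 arms overlap.

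Among the remaining classes the anchoring fibril and short-chain genes held calls. Col7a1 (chr9:108953586-108984875, plus strand) encodes type VII collagen, which fastens the epithelial basement membrane to the tissue below. It measured 254, 236 and 309 CPM in NT cells and 354, 347 and 420.2 CPM in siID4 cells. Every siID4 library was higher (0.49 ± 0.11, adjusted p = 0.0310), but the call was kept in 1 of the 6 fits that left out 1 library, that without NT replicate 3. The other 5 gave adjusted p up to 0.0959, and no filter on low counts gave 0.153.

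Col8a1 (chr16:57624258-57754737, minus strand) encodes a chain of type VIII collagen, a network former of endothelial and other basement membranes. It measured 153, 146 and 144 CPM in NT cells and 208, 194 and 189 CPM in siID4 cells. The arms were apart (0.42 ± 0.05, adjusted p = 0.00230). Its partner Col8a2 measured 1.20, 1.25 and 1.14 CPM against 1.30, 1.54 and 1.23 CPM, with overlap (0.17, adjusted p = 0.668).

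Neither tested transmembrane gene passed the test. Col17a1, the hemidesmosomal collagen of basal epithelial cells, measured 204, 196 and 229.8 CPM in NT cells and 228, 214 and 246 CPM in siID4 cells. The arms overlapped (0.13 ± 0.07, adjusted p = 0.302), and with the replicate block it rose (4.58e-04). Col25a1, a collagen of neurons, measured 4.77, 3.34 and 2.60 CPM against 5.09, 4.12 and 3.46 CPM (0.25, adjusted p = 0.558). Col18a1, the basement membrane multiplexin from which endostatin is cut, measured 419, 394 and 424 CPM in NT cells and 411, 377 and 399 CPM in siID4 cells (-0.06, 95% interval -0.17 to 0.05, adjusted p = 0.512), with overlap.

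Several collagen genes differed between replicate numbers in the same way in both arms. With the number as a block, 23 of the 32 collagen genes rose, as did 17.9% of all genes tested. Col5a3 and Col4a1 fell, as did 18.3% of all genes tested. All 12 genes that rose without the block were among the 23. By class the block gave 10 of 11 fibrillar, 3 of 5 tested basement membrane, 4 of 7 tested FACIT and 3 of 3 tested beaded genes that rose. The siID4 library was above the NT library of its number in all 3 pairs for 26 of the 32 collagen genes and 29.9% of all genes tested. Both the 23 and the 26 include Col2a1, Col4a3 and Col9a2, whose direction was fixed in part by the filter. The siID4 library was below in all 3 pairs for Col5a3, Col4a1 and Col18a1, and for 29.6% of all genes tested. Replicate 1 was above replicate 3 in both arms for 21 of the 32 collagen genes (65.6%), against 36.8% of all genes tested. What the replicate number stands for is not given in the sources used here.

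Chains of 1 trimer were compared within each library, which removes any effect of library scaling. Col1a1 stood at 0.910, 0.893 and 1.03 of Col1a2 per kilobase in NT libraries and at 1.06, 1.08 and 1.18 in siID4 libraries, without overlap. Col4a1 stood at 1.02, 1.02 and 0.919 of Col4a2 in NT libraries and at 0.898, 0.863 and 0.822 in siID4 libraries, again without overlap. Col6a1 stood at 1.65, 1.74 and 1.60 of Col6a2 in NT libraries and at 1.55, 1.53 and 1.51 in siID4 libraries. The log2 differences were 0.23, -0.20 and -0.12, each at an exact two-sided permutation p of 0.1, the smallest that 3 against 3 allows. With Benjamini-Hochberg adjustment of these exact tests over the 6 pairs compared each had p = 0.2, so none of these differences passed the test, which does not use the replicate numbers. Within replicate numbers the log2 differences were 0.22, 0.28 and 0.20 for Col1a1 to Col1a2. They were -0.19, -0.25 and -0.16 for Col4a1 to Col4a2 and -0.09, -0.18 and -0.08 for Col6a1 to Col6a2, so each pair kept its sign in all 3 numbers.

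The other 3 pairs overlapped between the arms. Col5a1 to Col5a2 differed by 0.04 (log2, exact permutation p = 0.7, adjusted 0.7). Col6a1 to Col6a3 differed by -0.25 and Col8a1 to Col8a2 by 0.25, each at an exact permutation p of 0.2 (adjusted 0.24). Within replicate numbers the log2 differences were -0.40, -0.26 and -0.09 for Col6a1 to Col6a3 and 0.34, 0.11 and 0.30 for Col8a1 to Col8a2, of 1 sign each, while those of Col5a1 to Col5a2 (-0.02, 0.07 and 0.07) were of both signs. Col8a1 was 98.9 to 108 times as abundant as Col8a2 per kilobase in NT libraries and 107 to 137 times in siID4 libraries.

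**Figure D4:**
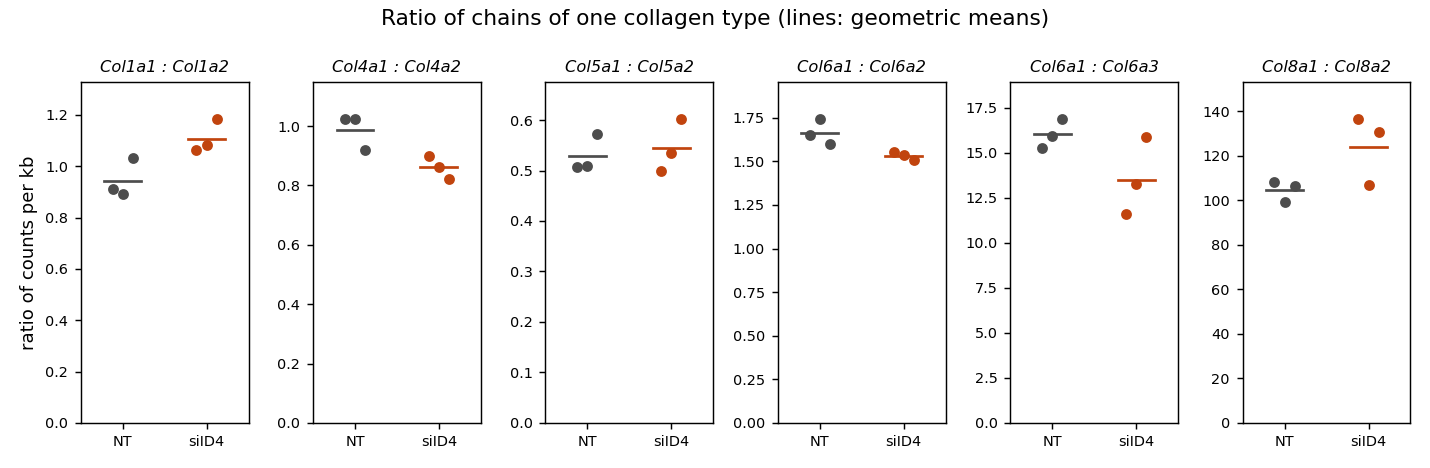
Ratio of the per-kilobase counts of chains of 1 collagen type in each NT (grey) and siID4 (orange) library, with lines at the geometric means and y axes from 0. Col1a1 to Col1a2 is higher in all siID4 libraries, Col4a1 to Col4a2 and Col6a1 to Col6a2 are lower in all of them, and the other 3 pairs overlap.

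ID4 binds basic helix-loop-helix proteins, whose dimers read the E-box CANNTG, so the promoters are shown for that motif and for the GC box GGGCGG, both searched on either strand. The windows are the 250 bases before the start of the gene, 5′ to 3′ on the gene's strand, from RefSeq GRCm38.p6. Capitals mark E-boxes (runs that start with CA and end with TG) and GC boxes (GGGCGG or CCGCCC). Col5a1 (chr2:27886175-27886424, plus strand) and Col11a1 (chr3:114030290-114030539, plus strand) stand for genes that rose and had no E-box. Col8a1 (chr16:57754738-57754987, minus strand) rose and had 2 E-boxes, 1 of which shares a base with a GC box. Col3a1 (chr1:45311288-45311537, plus strand), which passed the test with the replicate block and not without it, had 4 E-boxes that start 194, 111, 91 and 82 bases before the gene.
Col5a1: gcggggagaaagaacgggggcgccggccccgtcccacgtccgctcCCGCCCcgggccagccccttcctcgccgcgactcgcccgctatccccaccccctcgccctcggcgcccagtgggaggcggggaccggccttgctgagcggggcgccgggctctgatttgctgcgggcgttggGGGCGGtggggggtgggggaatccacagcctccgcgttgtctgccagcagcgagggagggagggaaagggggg
Col11a1: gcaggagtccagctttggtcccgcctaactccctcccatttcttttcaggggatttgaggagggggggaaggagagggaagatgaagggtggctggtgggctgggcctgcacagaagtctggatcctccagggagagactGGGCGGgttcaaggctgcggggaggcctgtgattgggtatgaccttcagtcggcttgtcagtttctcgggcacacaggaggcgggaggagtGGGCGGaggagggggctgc
Col8a1: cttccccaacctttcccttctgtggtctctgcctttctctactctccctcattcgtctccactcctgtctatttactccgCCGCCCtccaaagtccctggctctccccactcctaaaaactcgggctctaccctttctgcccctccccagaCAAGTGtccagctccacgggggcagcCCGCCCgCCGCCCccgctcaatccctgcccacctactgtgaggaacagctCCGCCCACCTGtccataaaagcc
Col3a1: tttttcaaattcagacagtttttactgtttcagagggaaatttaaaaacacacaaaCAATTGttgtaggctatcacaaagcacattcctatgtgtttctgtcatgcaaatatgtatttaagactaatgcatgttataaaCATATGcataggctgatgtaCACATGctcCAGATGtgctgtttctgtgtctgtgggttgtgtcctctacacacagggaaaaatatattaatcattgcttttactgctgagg

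Windows were matched by symbol for 34 of the 43 collagen genes, some with more than 1 window. Col1a1, Col2a1, Col5a2, Col9a3 and Col12a1, which rose, had no window and are in none of the counts below. An E-box was in 18 of 37 collagen windows (48.6%) and in 66.2% of all 32851 windows. Of the 7 matched genes that rose, 2 had an E-box, as did 11 of the 18 matched genes that were tested and did not rise. A GC box was in 22 of the 37 windows (59.5%), against 32.7% of all windows, in 7 of 7 matched genes that rose and in 9 of 18 that did not. CCAAT was in 35.1% of collagen windows and 33.8% of all, and TATAAA in 13.5% and 12.4%. A match describes these letters only.

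Collagen chains need enzymes and chaperones to fold, cross-link and trim them, and 29 of 31 such genes were tested. Of these 4 rose and 2 fell, where 4.62% of all genes tested rose and 4.93% fell, and the median log2 fold change was 0.06. The prolyl hydroxylase P4ha3 went from 4.92 ± 1.03 to 9.36 ± 1.05 CPM (0.94, adjusted p = 0.00961), and the lysyl hydroxylase Plod1 from 65.6 ± 1.96 to 85.6 ± 4.60 CPM (0.39, adjusted p = 0.00429; SD, n = 3). Of the procollagen N-proteinases, Adamts2 (0.50, adjusted p = 0.00438) and Adamts3 (0.49, adjusted p = 0.0421) rose and Adamts14 fell (-0.32, adjusted p = 0.00581). Colgalt1, which adds galactose to collagen, fell from 183 ± 9.59 to 131 ± 3.69 CPM (-0.48, adjusted p = 0.00129). P4hb, the most abundant of the list, measured 1559 and 1534 CPM (adjusted p = 0.779). In the fit with the replicate block 10 rose and 4 fell, against 17.9% and 18.3% of all genes tested. The 10 include Tll1, at 0.502, 0.0522 and 0.396 CPM in the NT libraries. Tll1 met the filter's minimum of 0.451 CPM in all libraries of the siID4 arm only.

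Proteins that bind collagen fibrils were listed as 14 genes of the table, of which 9 were tested and 4 rose (median 0.30), against 4.62% of all genes tested. With the replicate block 7 rose and 1 (Dcn) fell, against 17.9% and 18.3% of all genes tested. Postn, which aids cross-linking, measured 237, 212 and 225 CPM in NT cells and 424, 379 and 353 CPM in siID4 cells (0.78, adjusted p = 6.31e-04). The small proteoglycans Bgn (0.94) and Ogn (1.01) and the collagen-binding protein Sparc (0.30) rose too. Fn1, fibronectin, was the most abundant with 7162 ± 660 (NT) and 8453 ± 780 CPM (adjusted p = 0.106), and the replicate block gave a rise (5.55e-08).

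Of 9 collagen receptors 8 were tested and 2 rose (median 0.16), and 4 rose and 1 fell with the replicate block. The shares of all genes tested that rose and fell, for this list and the next ones, were 4.62% and 4.93% without the block and 17.9% and 18.3% with it. Itga11, the integrin subunit that reads type I collagen on fibroblasts, measured 1.71, 1.88 and 1.14 CPM in NT cells and 5.61, 5.21 and 3.29 CPM in siID4 cells (1.59, adjusted p = 0.00673). Ddr1, the collagen receptor kinase of epithelia, went from 58.2 ± 2.04 to 75.1 ± 1.24 CPM (0.37, adjusted p = 0.00352). Itgb1, the integrin partner of Itga11, measured 1051 and 1071 CPM (adjusted p = 0.797). Of 15 collagen-cleaving proteases and inhibitors 9 were tested, Timp3 rose (0.46) and Timp1 fell (-0.22), with a median of 0.21 (7 and 1 with the block). Of 15 basement membrane partners 11 were tested and Lama4 (0.44) and Hspg2 (0.19, adjusted p = 0.0344) rose, with a median of 0.05 (5 rose and 2 fell with the block).

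Markers of other cell types were summed in each library, because fibroblasts and other stromal cells also make fibrillar collagen. Of 9 fibroblast markers found 6 were tested, Cxcl12 and Pdgfrb rose and Pdgfra fell. With the replicate block Thy1 and Fap also rose, and Dcn, a proteoglycan of fibroblasts, also fell (62.6 and 49.1 CPM, adjusted p = 0.372 without and 1.13e-06 with the block). Thy1 was at 0.502, 0.261 and 0.352 CPM in the NT libraries and met the filter's minimum of 0.451 CPM in all libraries of the siID4 arm only. The summed level of the 9 fibroblast markers was 542 to 691 CPM in NT libraries and 748 to 864 CPM in siID4 libraries. It was mostly Cxcl12 (means of 250 and 401 CPM) and Pdgfrb (244 and 327 CPM). Pdgfra (56.0 and 36.3 CPM) and Dcn had lower means in siID4 cells, and Lum and Pi16 had means under 0.1 CPM. Of 6 pericyte markers Mcam and Notch3 were tested and rose. Kcnj8 and Abcc9 were at 0 in all NT libraries and had at most 3 and 1 counts in a siID4 library. Of the other untested markers Rgs5 had a higher mean in siID4 cells (0.176 and 0.498 CPM) and Cspg4 a lower one (0.141 and 0.0738 CPM). The 6 pericyte markers summed to 31.8 to 37.4 CPM in NT libraries and 44.6 to 54.2 CPM in siID4 libraries. Of 5 osteoblast markers Runx2 rose, and Alpl too with the block. The summed level of the 5 was 64.2 to 72.9 CPM in NT libraries and 76.9 to 87.2 CPM in siID4 libraries, nearly all Runx2 (means of 66.0 and 79.6 CPM). The part of these genes in the collagen changes was not tested.

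Markers of endothelial cells, leukocytes, adipocytes and Schwann cells were low in both arms. Endothelial markers summed to 0.627 to 1.06 CPM in NT libraries and 1.49 to 1.94 CPM in siID4 libraries, with Tie1 at 0. Leukocyte markers summed to 3.03 to 3.11 and 3.35 to 3.77 CPM. Adipocyte markers summed to 10.6 to 11.96 and 9.91 to 11.5 CPM with Plin1 at 0, and Schwann markers to 1.45 to 2.31 and 1.27 to 1.73 CPM with Sox10 at 0. Of these lists 1, 2, 1 and 2 genes were tested, and edgeR called 0 at an adjusted p under 0.05. At an unadjusted p under 0.05 the endothelial gene Kdr (0.266 and 0.707 CPM) and the leukocyte gene Csf1r (0.770 and 1.16 CPM) were higher in siID4 cells. Kdr was below the filter's minimum of 0.451 CPM in every NT library and was tested through the siID4 arm only, and with the block it rose (adjusted p = 0.0106). Of 8 mammary basal markers Trp63, Acta2 and Oxtr rose (list sums of 2333 to 2759 and 2561 to 2905 CPM). Among 8 luminal markers Epcam fell (list sums of 465 to 533 and 412 to 464 CPM), and among 6 epithelial markers Cdh1 rose (list sums of 625 to 712 and 603 to 655 CPM). The block gave 4 basal genes that rose and 1 that fell (Krt5), 1 luminal gene that rose and 4 that fell, and 1 epithelial gene that rose and 2 that fell (Krt7 and Cldn7).

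Reads could be shared where genes overlap. Col4a5, Col5a1, Col9a3 and Col12a1, 4 of the 12 genes that rose, overlap an annotated gene on the other strand in GENCODE M21. Among all 43 collagen genes 18 do, these 4 included, and Col4a1 and Col4a2 overlap each other. Col1a2, Col4a5, Col5a2 and Col7a1, which rose, overlap an annotated gene on the same strand. The strand setting of the counting is not given in the sources used here, so reads of these genes and of their overlapping partners may not be told apart.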

How the data were processed

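RNA from 6 libraries of Comma-Dβ cells (3 NT, 3 siID4) was sequenced after poly(A) selection with a strand-marking kit, per the labels' protocols. The authors deposited expected counts per gene, made with cutadapt, STAR and RSEM on mm10, per the submitters' processing notes. Versions, annotation release and strand setting are not given in the labels or headers. Between 10.0% and 10.6% of values in a library were not whole (tolerance 0), and all were rounded. An expected count divides reads shared between genes by estimate. The table also gives a gene length, used for levels per kilobase. Genes with no symbol (51) stayed in the fit.

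The values were scaled by TMM and tested with edgeR 4.0.16 (R 4.3.3; robust quasi-likelihood fit, filterByExpr minimum count 10, Benjamini-Hochberg over 13941 genes), with the arm as the only term; the biological coefficient of variation was 7.83%. DESeq2 1.42.0, limma 3.58.1 voom, other scalings and filters, a length correction, a replicate block and leaving out each library were alternatives. Same-numbered libraries correlated at 0.42, 0.14 and 0.38 in their deviations from the arm means over all tested genes. The numbers were therefore taken as pairs in the replicate block and the within-number differences, while the main fit does not use them. Other pairs correlated at -0.02 or below. Subtracting the arm means pushes those values below 0 once the same-numbered ones lie above 0, so they add no support. Same-arm libraries differed by 5.10 to 13.8 in chi-square per gene, so none was a copy of another. Within-number differences used log2(CPM + 0.5). Chain ratios used exact permutation tests.

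Any collagen gene could be named, with library values for those that rose or reached a mean of 1 CPM in an arm. From each related list the called genes (at most 5 by smallest adjusted p) and the most abundant gene were named, and marker lists were summed. Genes named outside this rule (Adamts3, Tll1, Dcn and single markers with their values) were chosen after their values were seen. The members and lists were chosen with earlier results of these data known. Promoter windows came from RefSeq GRCm38.p6 and gene positions from GENCODE M21 (GRCm38).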

Additional observations from a re-analysis of the deposited data

How the results depend on the processing

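Of the 12 collagen genes that rose, 6 (Col1a1, Col1a2, Col2a1, Col5a1, Col11a1 and Col8a1) were called in every alternative in which they were tested. With the replicate block 23 collagen genes rose and 2 fell, and 5038 genes were called in place of 1331. Leaving out 1 library in turn gave 6 to 14 collagen genes that rose, 0 that fell, and 445 to 1351 genes called in all. The smallest counts came without NT replicate 2 (6 collagen genes, 631 genes in all) and without siID4 replicate 2 (7 and 445), and 884 genes were called without siID4 replicate 1. The other alternatives gave 9 (no filter on low counts) to 13 (DESeq2) collagen genes that rose and 0 that fell. Over the same fits the log2 fold change of Col4a2 ranged from -0.0091 (without NT replicate 2) to 0.137, also turning to -0.0052 without siID4 replicate 3, and that of Col16a1 from -0.113 to 0.0147 (without NT replicate 1). The log2 ratio of Col5a1 to Col5a2 ranged from -0.0332 (without siID4 replicate 3) to 0.101. In this balanced design the replicate block cannot move the mean difference of a chain ratio. The cause of these shifts was not tested. With 3 libraries an arm, the exact test of 1 ratio could not go below 0.1, and genes that met the filter's minimum in fewer than 3 libraries were not tested.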
